A study of Mus musculus with 6 samples.

Results

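The genes described are the nuclear genes for the subunits of oxidative phosphorylation in mouse hepatocytes, the main working cells of the liver. They were chosen by symbol, as the protein-coding nuclear genes whose symbol begins with Nduf, Uqcr, Atp5, Sdha, Sdhb, Sdhc, Sdhd, Cox4, Cox5, Cox6, Cox7 or Cox8. The rule found 97 of the 48432 genes listed, and 93 had at least 1 TPM (a share of all transcripts that corrects for their length and sums to 1000000) in at least 2 of the 6 samples and were tested. Of the 97, 83 are subunits of complexes I to V, 12 are assembly factors that carry the same prefixes, and the other two are Atp5s, a factor related to complex V, and Cox7a2l, which joins complexes into supercomplexes.

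Hepatocytes of FVB mice were compared in 3 groups of 2 samples. Normal fed mice, labelled as adults, were the controls. DDC fed mice, also labelled as adults, had the compound in their diet for 4 weeks; DDC blocks the last step of heme synthesis and injures the liver. Hepatocytes of embryonic day 18 (E18) came from livers of approximately 8 embryos pooled for a preparation. No transgene or deletion is given for any group. The labels do not state that the adult pairs are different animals, so p-values measure only the spread between these samples, which may be technical. Within each group the samples are called sample 0 and sample 1 after the columns of the deposited table.

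Oxidative phosphorylation takes place in the inner membrane of the mitochondrion. Complexes I and II feed electrons from NADH and succinate to ubiquinone, complex III passes them to cytochrome c, complex IV hands them to oxygen, and complex V makes ATP from the proton gradient that complexes I, III and IV build. Most subunits are encoded in the nucleus, a few of complexes I, III, IV and V in mitochondrial DNA, and hepatocytes are rich in mitochondria because urea synthesis, gluconeogenesis and fatty acid oxidation depend on them.

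Promoter sequences are shown for 4 subunits. Cox6b1 and its testis form Cox6b2 are shown because the results turn on them. Cox6a1 and Sdhb, which fell at E18, were taken from the members whose windows match both motifs described next. Their matches are therefore no finding about genes that fell. Each runs 5′ to 3′ on its gene's strand of GRCm38.p6 (plus for Sdhb, minus for the others) from 250 bases before to 50 after the RefSeq start. Capitals mark matches to CCGGAAG or its reverse complement CTTCCGG, a core bound by GABP (NRF2) and other ETS factors, and to GCATGCGC or GCGCATGC, the core of the NRF1 site.
Cox6b1 (chr7:30626065-30626364): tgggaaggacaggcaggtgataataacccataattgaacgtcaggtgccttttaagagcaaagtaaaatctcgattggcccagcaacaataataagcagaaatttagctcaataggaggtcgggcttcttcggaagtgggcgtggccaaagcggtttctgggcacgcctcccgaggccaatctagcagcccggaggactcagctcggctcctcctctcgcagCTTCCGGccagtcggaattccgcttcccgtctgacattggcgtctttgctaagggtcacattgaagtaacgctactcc
Cox6b2 (chr7:4753045-4753344): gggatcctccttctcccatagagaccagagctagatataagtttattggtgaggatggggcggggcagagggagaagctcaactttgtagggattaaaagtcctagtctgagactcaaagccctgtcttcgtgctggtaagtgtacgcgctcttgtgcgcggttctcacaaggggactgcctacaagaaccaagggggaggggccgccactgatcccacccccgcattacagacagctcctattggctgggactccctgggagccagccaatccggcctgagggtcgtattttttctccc
Cox6a1 (chr5:115348909-115349208): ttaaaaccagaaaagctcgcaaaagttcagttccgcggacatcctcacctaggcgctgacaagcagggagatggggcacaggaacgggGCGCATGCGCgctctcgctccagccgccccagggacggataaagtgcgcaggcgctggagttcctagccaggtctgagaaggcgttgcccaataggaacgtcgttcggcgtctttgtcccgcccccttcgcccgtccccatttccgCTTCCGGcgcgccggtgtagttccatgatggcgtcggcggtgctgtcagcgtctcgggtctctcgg
Sdhb (chr4:140961021-140961320): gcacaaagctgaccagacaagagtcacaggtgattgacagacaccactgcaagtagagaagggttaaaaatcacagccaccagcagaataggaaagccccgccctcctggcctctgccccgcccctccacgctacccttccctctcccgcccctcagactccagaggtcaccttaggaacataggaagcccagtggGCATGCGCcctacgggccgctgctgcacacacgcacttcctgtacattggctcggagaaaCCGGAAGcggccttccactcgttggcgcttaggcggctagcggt

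The Cox6b1 window held 1 ETS match, 28 bases before the start. Cox6a1 held an NRF1 match 162 bases and an ETS match 16 bases before the start, and Sdhb an NRF1 match 54 bases before it and an ETS match just after it. The Cox6b2 window held no match to the 5 motifs searched, which says only that these letters are not in it. RefSeq promoters were at hand for 78 of the 97 members, and both strands were searched. CCGGAAG was present in 25.6% of those 78, against 17.4% of 10686 tested genes and 9.12% of all 27025 promoters. GCATGCGC was present in 15.4%, 5.15% and 2.8%, and AAGATGGC, a YY1 motif, in 11.5%, 4.5% and 2.88%, in the same order. TGACGTCA, bound by CREB, was in 5.13%, 3.14% and 1.88%, and TATAAA in 10.3%, 7.77% and 14.2%. None of the motifs contains another, and a match is a description of sequence and not of binding.

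Before the members are described, 3 features of the samples bear on all of them. The table gives TPM and no counts, so the depth is unknown. The median of all tested genes was 0.45 higher in DDC fed than in normal fed mice and 1.06 higher at E18 (log2 scale), and with median-ratio scaling these medians were 0.00 and 0.09, so changes are given beside the median of all genes. Normal fed samples 0 and 1 stood apart, and their difference moved with the total exon length of the gene: the median of sample 1 minus sample 0 was 0.00 in the 20% of genes with the shortest exons and -0.52 in the 20% with the longest. The members are short, with a median exon length of 1718 bases against 4099 for all genes, and 58 of the 93 lie in the shortest 20%. Normal fed sample 1 was above sample 0 for 72 of the 93 members, by a median of 0.54, while the median of all genes was -0.22. Within the shortest 20% the median was 0.60 for the 58 members and 0.00 for all genes. The cause of the members' difference was not tested. The median size of that difference over members was 0.58 in the normal fed group, 0.16 in the DDC fed group and 0.07 at E18. Counts are therefore also given after median-ratio scaling and after a correction that removes the length trend. The correction also recentres each sample, and it brought the medians of all genes to -0.13 with DDC and -0.09 at E18. Its counts therefore do not show the effect of length alone.

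Hepatocyte identity was checked on 7 markers. Alb was listed at 0 in all 6 samples, Fgb at 0 in both E18 samples and Serpina1a at 0 in both normal fed samples, although other hepatocyte markers were high, so a 0 in this table can be a failed estimate. The summed share of the 7 markers was 1.24% to 1.48% of TPM in normal fed, 1.14% to 1.20% in DDC fed and 0.329% to 0.524% in E18 samples. Because of the values at 0, these sums cover different markers in each group and are not directly comparable. Markers of blood cells were far higher at E18. Their sums at E18 were 1.24% and 2.35% for erythroid markers and 5.20% and 6.15% for neutrophil markers, against at most 0.00264% and 0.000232% in the adult samples. Macrophage markers summed to 0.00907% to 0.00986% in normal fed, 0.0847% to 0.105% in DDC fed and 0.341% to 0.430% in E18 samples. All 7 macrophage and all 5 endothelial markers rose in both comparisons with normal fed mice. Of 7 stellate and fibroblast markers 6 rose with DDC and 7 at E18. Of 5 cholangiocyte markers 2 rose with DDC and 4 at E18. The cholangiocyte sums were 0.000340% to 0.000386% in normal fed, 0.00706% to 0.00891% in DDC fed and 0.00895% to 0.0139% in E18 samples. Of all tested genes 34.2% rose with DDC and 63% at E18 (limma, adjusted p under 0.05). The part of these cell types in the results below was not tested, and in such bulk samples fewer cells of a type and less RNA per cell cannot be told apart.

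The members took a smaller share of the transcripts with DDC and a still smaller one at E18. They summed to 3.54% of TPM in normal fed sample 0 and 5.33% in sample 1, to 2.95% and 3.23% in the DDC fed samples, and to 2.60% and 2.48% in the E18 samples. The groups did not overlap, and most of the spread lay between the normal fed samples. The mean was 4.44% ± 1.26 in normal fed, 3.09% ± 0.197 in DDC fed and 2.54% ± 0.0849 in E18 samples (SD, n = 2 each). The order of the group means was the same in all 5 complexes.

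Complexes V, IV and I took the largest shares and complex II, with only 4 subunits, the smallest. Complex I, with 36 members, held 1.13% ± 0.311 of TPM in normal fed, 0.749% ± 0.0464 in DDC fed and 0.596% ± 0.00236 in E18 samples. Complex III held 0.700% ± 0.239, 0.452% ± 0.0398 and 0.343% ± 0.0211 in the same order. Complex IV held 1.13% ± 0.421, 0.770% ± 0.0552 and 0.626% ± 0.00910. In both, as in complex I, each DDC fed and E18 sample was below both normal fed samples. Complex V held 1.28% ± 0.284, 0.944% ± 0.0498 and 0.848% ± 0.0440. Complex II held 0.140% ± 0.00208, 0.130% ± 0.00245 and 0.0917% ± 0.00790, with the normal fed samples close to each other (0.138% and 0.141%).

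**Figure D1:**
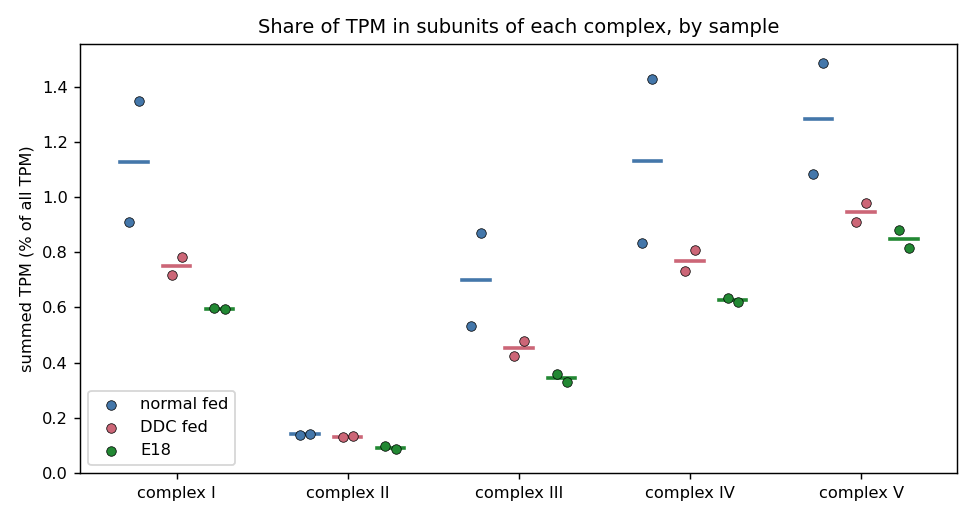
Summed TPM of the subunits of each complex as a percent of all TPM (y axis) in the 6 samples, coloured by group; each point is a sample and each bar the group mean. Normal fed sample 1 is the highest point in all 5 complexes, though close to sample 0 in complex II (0.141% and 0.138%). In all 5 complexes both E18 samples lie below both DDC fed samples.

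Most members are abundant transcripts. Of the 97, 72 averaged at least 100 TPM in normal fed, 72 in DDC fed and 71 in E18 samples, against 8.9%, 10.8% and 10.5% of all tested genes. The median member stood at 341.9 TPM in normal fed, 244.3 in DDC fed and 194.9 in E18 samples, while the median of all tested genes was 6.49, 10.7 and 17.7 TPM. Atp5b, the catalytic beta subunit of ATP synthase, was listed at 2001 and 1204 TPM in normal fed, 1818 and 1865 in DDC fed and 1708 and 1477 in E18 samples. It was the highest subunit of complex V, and the DDC fed and E18 samples lay between the normal fed ones, while both DDC fed samples were above both E18 samples. The rank order of the members was similar between groups: across the 93 tested members, which share libraries and gene lengths, Spearman rho between mean levels was 0.973 for normal fed and DDC fed and 0.958 for normal fed and E18.

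**Figure D2:**
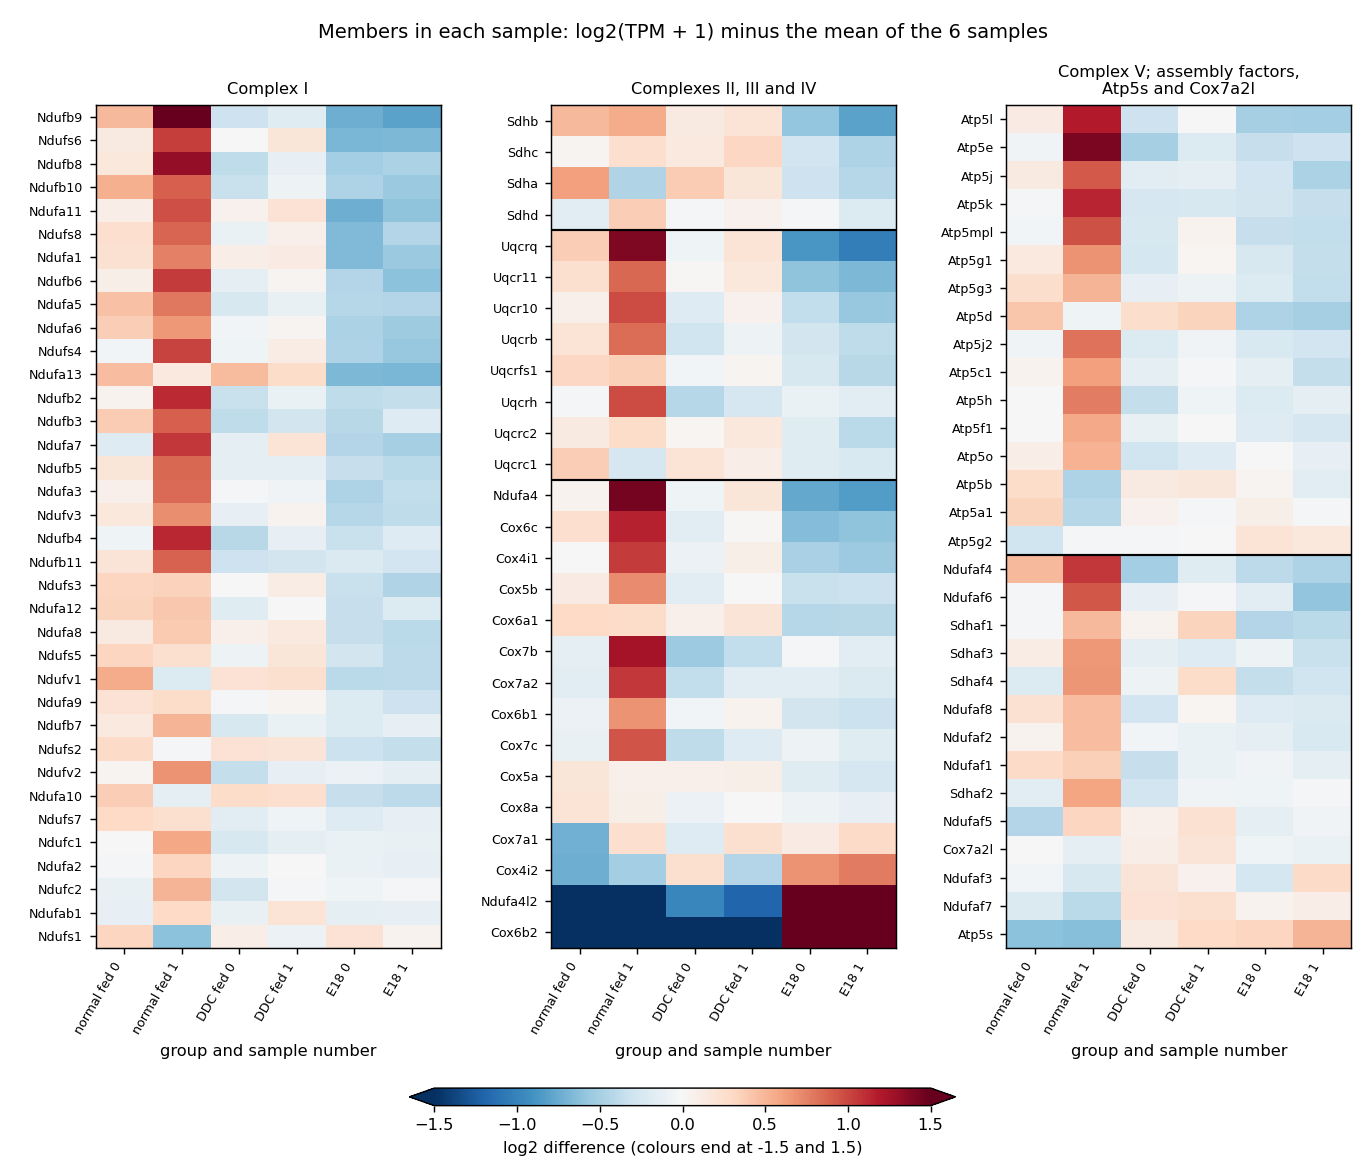
Each row is a tested member, grouped by complex, and each column a sample; colour is log2(TPM + 1) minus the mean of the 6 samples (red higher, blue lower). The column of normal fed sample 1 is the reddest, the E18 columns are blue over most rows, and Cox6b2, Ndufa4l2 and Cox4i2 have the opposite pattern.

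Which respiratory chain genes differ in hepatocytes of DDC fed mice was asked first. Few members passed the test: 5 of 93 fell and 1 rose by limma at an adjusted p under 0.05. Over all tested genes 3.07% fell and 34.2% rose, 37.3% in either direction. The median change of the members was -0.46 against 0.45 for all genes, and 89 of the 93 lay below the median of all genes. Both DDC fed samples were below both normal fed samples for 51 members (8.99% of all genes) and above them for 6 (62.4%). Those above were Cox4i2, Ndufa4l2, Atp5s, Ndufaf3, Ndufaf7 and Cox7a2l, named after their values were seen.

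The 5 that fell were 4 accessory subunits of complex I and a factor that assembles it. Ndufb9, in the membrane arm, stood at 737 and 1533 TPM in normal fed, 426 and 464 in DDC fed and 318 and 303 in E18 samples. All DDC fed and E18 values were under the lower normal fed value, and the change with DDC was -1.26 ± 0.36 (log2 ± SE; limma, adjusted p = 0.0346). Ndufb3, of the same arm, stood at 199 and 284 TPM in normal fed, 117 and 126 in DDC fed and 114 and 133 in E18 samples. Its change was -0.97 ± 0.24 (limma, adjusted p = 0.0205), with DDC fed and E18 samples at similar levels. Ndufb10, also in the membrane arm, went from 466 and 601 TPM in normal fed to 254 and 305 in DDC fed samples, a change of -0.92 ± 0.24 (limma, adjusted p = 0.0227). Ndufa5, of the matrix arm, went from 253 and 322 to 158 and 172 TPM, a change of -0.79 ± 0.21 (limma, adjusted p = 0.0276). Ndufaf4, an assembly factor of complex I, went from 46.5 and 70.0 to 23.0 and 29.0 TPM, a change of -1.11 ± 0.25 (limma, adjusted p = 0.0144). In each of the 5 the DDC fed samples did not overlap the normal fed ones.

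These calls depended on single samples and on the variance that the groups share. The E18 samples enter this comparison only through that variance, and the changes were the same without either of them. With only the 2 groups compared none of the 5 passed (limma, adjusted p between 0.0524 and 0.106). Without either DDC fed or either E18 sample none of the 5 passed (limma, adjusted p between 0.0577 and 0.207), while without either normal fed sample all 5 did. The median change of the members was -0.67 without normal fed sample 0 and -0.17 without sample 1, against 0.63 and 0.31 for all genes. With median-ratio scaling 30 members fell (11.6% of all genes) and with the exon-length correction 45 did (15.8%), the 5 among them each time, and no member rose.

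Members of the other complexes stood lower on average with DDC but did not pass. The median change was -0.53 in complex III, -0.29 in complex IV and -0.52 in complex V, and 0.00 in complex II. The lowest changes there were Atp5e (-1.02 ± 0.47; limma, adjusted p = 0.131), Cox7b (-1.01 ± 0.44; 0.113) and Uqcrh (-0.82 ± 0.36; 0.121), subunits of complexes V, IV and III. Each of them was far higher in normal fed sample 1 than in the other 5 samples. Atp5e stood at 646 and 1788 TPM in normal fed, 478 and 585 in DDC fed and 530 and 540 in E18 samples. Among members averaging 10 TPM or more in either group compared, the highest change in each complex was that of Atp5b (0.25), Sdha (0.20), Ndufa10 (0.15), Uqcrc1 (0.09) and Cox5a (-0.05), and in the first 4 of these normal fed sample 1 was below both DDC fed samples. The member that rose was Atp5s, at 3.11 and 3.04 TPM in normal fed, 5.94 and 6.74 in DDC fed and 6.91 and 7.98 in E18 samples. Its changes of 0.85 ± 0.19 with DDC and 1.05 ± 0.19 at E18 (limma, adjusted p = 0.0132 and 0.00198) were 0.31 and 0.05 with median-ratio scaling and did not pass there. Without DDC fed sample 0 or 1 its adjusted p by limma with DDC was 0.0774 and 0.124.

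**Figure D3:**
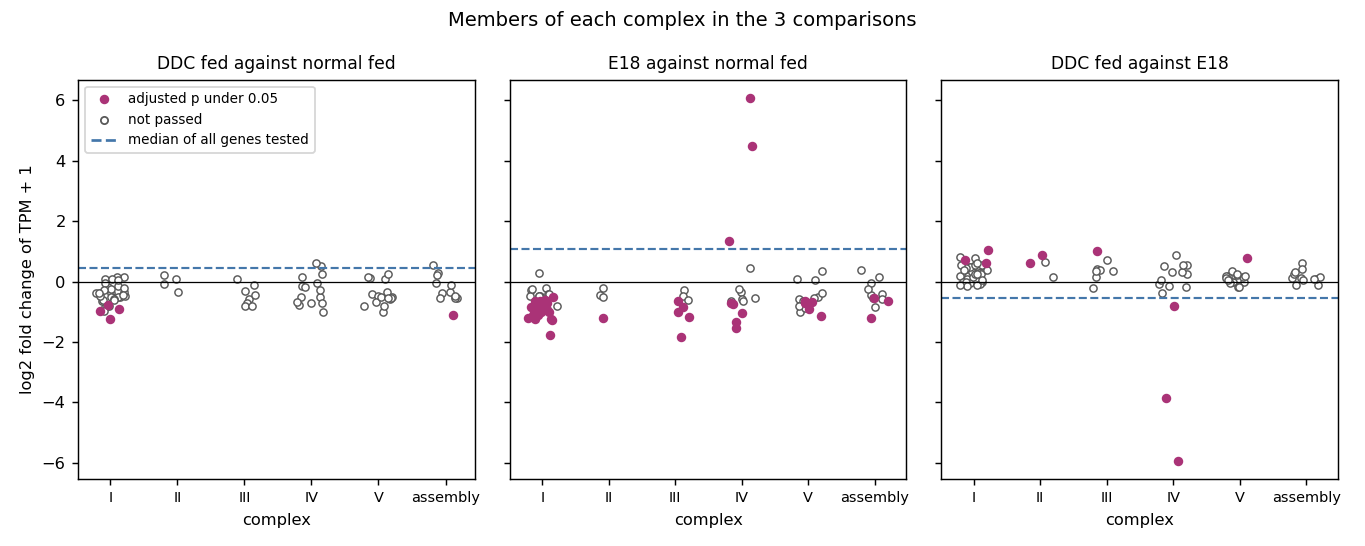
Log2 fold change of TPM + 1 (y axis) for each tested member of complexes I to V and the assembly factors in the 3 comparisons; filled points passed an adjusted p under 0.05 and the dashed line is the median of all genes tested. Nearly all members lie below the dashed line in the comparisons with normal fed mice and above it for DDC fed against E18, apart from the rising forms of complex IV subunits.

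At E18 members of all 5 complexes fell, with the largest number in complex I. Of 93 members 42 fell (12.7% of all genes) and 4 rose (63% of all genes, with 75.7% in either direction) by limma, with a median change of -0.64 against 1.06 for all genes. Both E18 samples were below both normal fed samples for 72 members (16.7% of all genes) and above them for 6 (69.7%). Median-ratio scaling gave 88 lower and 3 higher (31.8% and 38% of all genes), and the exon-length correction 87 and 3 (35.6% and 31.7%). All 42 were among those lower with either. Of the 42, 41 remained lower without normal fed sample 0, 35 without sample 1, 20 and 19 without DDC fed sample 0 and 1, and 10 without either E18 sample.

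In complex I 23 of 36 subunits fell, with a median of -0.82. They were 21 of the 29 accessory subunits and 2 of the 7 core subunits: Ndufs8 (-1.11 ± 0.26), which carries iron-sulfur clusters, and Ndufs3 (-0.73 ± 0.19). Ndufb9 had the lowest change, -1.77 ± 0.36 (limma, adjusted p = 0.00369; 0.0547 without E18 sample 1). Ndufs1, the largest core subunit, was the highest at 0.28 ± 0.32 (limma, adjusted p = 0.446). Its TPM were 127 and 65.6 in normal fed, 108 and 94.6 in DDC fed and 118 and 105 in E18 samples, so the E18 samples lay between the normal fed ones. Its change was 0.75 without normal fed sample 0 (adjusted p = 0.00614 by limma), -0.91 with median-ratio scaling and -1.12 with the exon-length correction (adjusted p = 0.0118 and 0.00235), so its direction is unsettled.

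Complex II, which also belongs to the TCA cycle, was uneven. Sdhb, its iron-sulfur subunit, stood at 442 and 462 TPM in normal fed, 346 and 362 in DDC fed and 209 and 180 in E18 samples. The 3 groups did not overlap, and the E18 change of -1.21 ± 0.21 (limma, adjusted p = 0.00166) passed with each sample left out in turn. Sdhc, a membrane anchor, stood at 230 and 265 TPM in normal fed, 246 and 278 in DDC fed and 182 and 161 in E18 samples, a change of -0.52 ± 0.21 at E18 (limma, adjusted p = 0.0565; 0.0158 without normal fed sample 0). Sdhd, the other anchor, stood at 357 and 518, 395 and 421, and 395 and 348 TPM, and its groups overlapped. Sdha, the flavoprotein, stood at 354 and 168 TPM in normal fed, 301 and 262 in DDC fed and 186 and 171 in E18 samples. Its normal fed samples were farther apart than the group means.

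In complex III 5 of 8 subunits fell: Uqcrq, Uqcr11, Uqcr10, Uqcrb and the Rieske protein Uqcrfs1. Uqcrq, a small subunit next to cytochrome b, stood at 992 and 2028 TPM in normal fed, 735 and 881 in DDC fed and 419 and 374 in E18 samples. No groups overlapped, and the E18 change was -1.84 ± 0.37 (limma, adjusted p = 0.00356; 0.0552 without E18 sample 1), the largest fall of any member. The core proteins did not pass, with Uqcrc1 at -0.27 ± 0.26.

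In complex V 5 of 16 subunits fell at E18, with a median of -0.65 for the complex. They were Atp5l and Atp5j, of the membrane part and the stalk, Atp5g1 and Atp5g3, for the ring of c subunits, and Atp5d of the central stalk. Atp5l had the lowest change, -1.16 ± 0.37 (limma, adjusted p = 0.0245; 0.136 and 0.142 without E18 sample 0 and 1). Among 12 assembly factors Ndufaf4 (-1.20 ± 0.25), Sdhaf1 (-0.65 ± 0.24) and Ndufaf8 (-0.55 ± 0.20) fell. Ndufaf4 stood at 25.0 and 23.7 TPM at E18, close to its DDC fed values, and its adjusted p by limma was 0.00427, or 0.0545 without E18 sample 1. Ndufaf6 (-0.84 ± 0.34) and Sdhaf4 (-0.56 ± 0.31) did not pass.

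Complex IV differed within itself, since several of its subunits have a second gene of restricted expression. Of 11 widely expressed forms 5 fell at E18. Of 4 tested restricted forms Cox6b2 and Ndufa4l2 rose, as did Cox4i2, which was tested only because of its E18 values, and Cox7a1 did not pass. Those that fell were Ndufa4 (-1.55 ± 0.45), once assigned to complex I, Cox6c (-1.33 ± 0.35), Cox4i1 (-1.04 ± 0.38), Cox5b (-0.74 ± 0.26) and Cox6a1 (-0.71 ± 0.23). Ndufa4 stood at 981 and 2567 TPM in normal fed, 902 and 1074 in DDC fed and 553 and 528 in E18 samples. Its adjusted p by limma was 0.0175, and 0.117 and 0.129 without E18 sample 0 and 1.

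Cox6b2, the form of subunit 6b known from testis, was the member that changed most. The gene lies at chr7:4751792-4753094 on the minus strand of GRCm38. It stood at 1.14 and 0.654 TPM in normal fed, 0.831 and 1.38 in DDC fed and 101 and 158 in E18 samples. The adult samples overlapped and both E18 samples were far above them, a change of 6.08 ± 0.29 (limma, adjusted p = 3.87e-06), against 0.15 ± 0.29 with DDC (0.717). Cox6b1 (chr7:30616861-30626151, minus strand), whose promoter is shown above, stood at 938 and 1591 TPM in normal fed, 967 and 1028 in DDC fed and 825 and 794 in E18 samples. It remained the main form at E18. Cox6b2 made up 10.9% and 16.6% of the summed TPM of the pair in the E18 samples, and 0.0811% ± 0.0566 in normal fed and 0.110% ± 0.0343 in DDC fed mice (SD, n = 2 each).

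Ndufa4l2, a relative of Ndufa4 known to be induced by low oxygen, also rose at E18. At chr10:127514967-127517154 (plus strand), it stood at 1.18 and 0.737 TPM in normal fed, 2.21 and 1.76 in DDC fed and 41.1 and 43.5 in E18 samples. The 3 groups did not overlap, and the change was 4.47 ± 0.21 at E18 (limma, adjusted p = 3.41e-06) and 0.61 ± 0.21 with DDC (0.0570, and 0.0109 without normal fed sample 0). Its share of the Ndufa4 pair was 0.0745% ± 0.0647 in normal fed, 0.204% ± 0.0569 in DDC fed and 7.26% ± 0.494 in E18 samples. Cox4i2, the lung form of subunit 4 and also known as oxygen-regulated, was low throughout. It stood at 0 and 0.164 TPM in normal fed, 0.959 and 0.224 in DDC fed and 1.66 and 1.84 in E18 samples. It passed the filter only through its E18 values, so its rise at E18 (1.35 ± 0.22 on the log2(TPM + 1) scale; limma, adjusted p = 0.00125) had to be in that direction, and Cox4i1 stood at 817 and 783 TPM there. The rises of Cox6b2 and Ndufa4l2 at E18 passed under both other scalings and with each sample left out in turn.

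The other restricted forms were low or absent. Cox7a1, the heart and muscle form, stood at 4.48 and 9.74 TPM in normal fed, 6.85 and 9.63 in DDC fed and 8.82 and 9.96 in E18 samples, and its change of 0.44 ± 0.35 at E18 did not pass (limma, adjusted p = 0.286). It made up 1.41% ± 0.0776 of the summed TPM of Cox7a1 and Cox7a2 in normal fed, 2.81% ± 0.369 in DDC fed and 3.07% ± 0.337 in E18 samples. Cox6a2, the muscle form, was at 0 in both normal fed samples and reached 0.865 TPM in E18 sample 1. Cox8b was listed above 0 in 1 sample, at 0.206 TPM in normal fed sample 1, and Cox7b2 and Cox8c at 0 in all 6. These last 4 were not tested, and the widely expressed Cox8a stood at 778 to 973 TPM in the 6 samples.

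The c subunit of ATP synthase is made from 3 genes that differ in their import sequence. Atp5g2 stood at 136 and 165 TPM in normal fed, 164 and 168 in DDC fed and 193 and 187 in E18 samples, so that both E18 samples were above all others. Atp5g3 stood at 1215 and 1434, 923 and 958, and 877 and 780 TPM, and Atp5g1 at 455 and 660, 344 and 421, and 350 and 323 TPM. Atp5g2 changed by 0.34 ± 0.20 at E18 (limma, adjusted p = 0.162), 0.48 without normal fed sample 1 (0.0203) and -0.86 with median-ratio scaling (0.0254), so its direction depends on the scale. Its share of the 3 genes does not change when a whole sample is rescaled, and was not computed after the exon-length correction. The share was 7.42% ± 0.175 in normal fed, 11.2% ± 0.444 in DDC fed and 14.0% ± 0.642 in E18 samples, with no overlap between groups. Atp5g3 remained the main gene at 60.5% to 67.3% in the 6 samples.

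**Figure D4:**
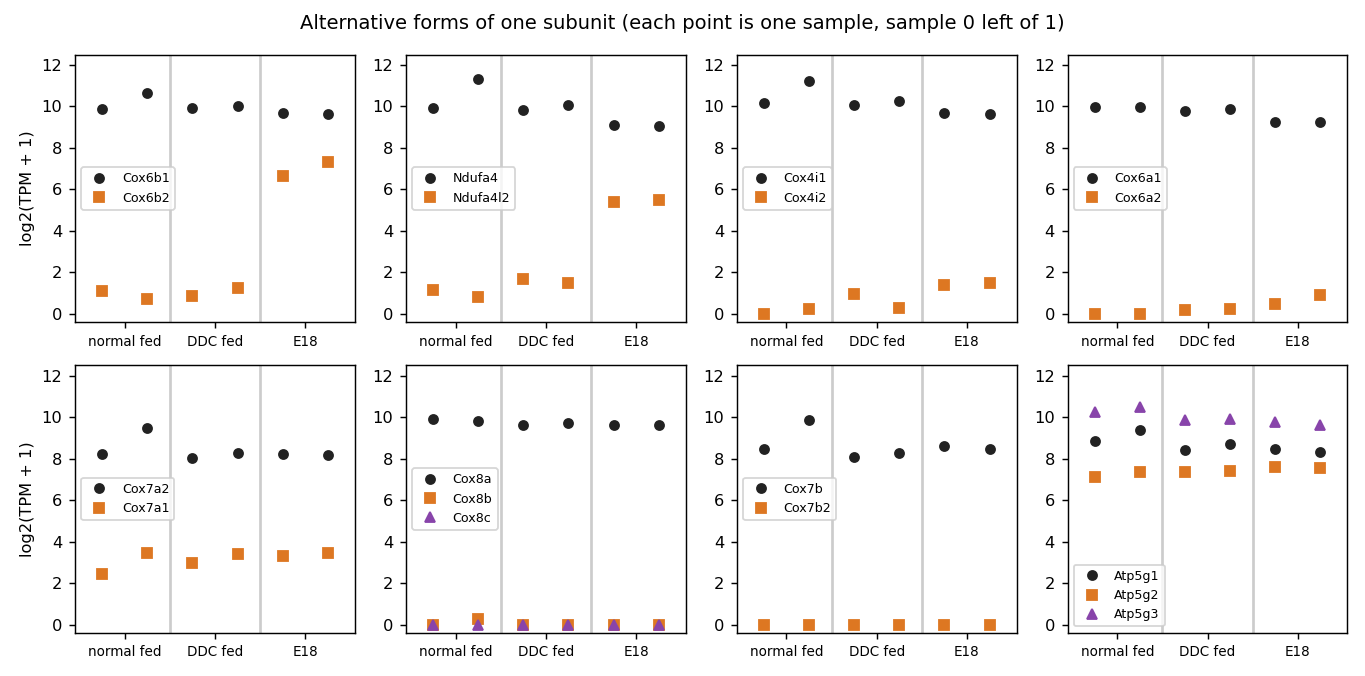
Levels (log2(TPM + 1), y axis) of the alternative forms of 8 subunits; each point is a sample, sample 0 left of sample 1 in each group. Cox6b2 and Ndufa4l2 rise at E18 while their common partners Cox6b1 and Ndufa4 stay above 528 TPM, and the second forms of Cox8 and Cox7b lie at or near 0.

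The E18 samples differed from each other in blood and hepatocyte markers, and the rising forms can be set beside them. E18 sample 1 had 1.53 to 2.06 times the TPM of sample 0 for the 8 erythroid markers tested, 1.16 to 1.31 times for the 5 neutrophil markers and 0.556 to 0.704 times for the 5 hepatocyte markers above 0 there. The range was 0.923 to 1.42 for 7 macrophage, 0.880 to 1.08 for 5 endothelial, 0.746 to 1.01 for 7 stellate and fibroblast and 0.331 to 0.724 for 5 cholangiocyte markers. Cox6b2 was 1.57 times as high in sample 1, Ndufa4l2 1.06 times and Cox4i2 1.11 times. The 89 tested members that are not restricted forms of complex IV had a median of 0.963 times and a range of 0.738 to 1.51. The ratios of Ndufa4l2 and Cox4i2 lay within that range too, and that of Cox6b2 above it. In this 1 pair of samples the ratio of Cox6b2 lay within the range of the erythroid markers, that of Ndufa4l2 within those of the macrophage and endothelial markers and that of Cox4i2 within that of the macrophage markers. The part of blood cells in the E18 levels was not tested.

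DDC fed and E18 hepatocytes were then compared directly. Here the members lay above the other genes, with a median difference of 0.23 against -0.55 for all genes. Of the 93, 7 were higher in DDC fed mice (17.7% of all genes) and 3 lower (47%, with 64.7% in either direction), and 60 were above without overlap (28.2% of all genes) and 10 below (61.8%). Ndufa13, an accessory subunit of complex I also known as GRIM-19, had the largest difference among those higher. It stood at 189 and 164 TPM in DDC fed and 84.7 and 83.6 in E18 samples, with normal fed samples at 186 and 150, a difference of 1.05 ± 0.21 (limma, adjusted p = 0.00424; 0.0571 without DDC fed sample 0). Its span overlaps that of Yjefn3 on the same strand, so reads of both genes may be shared. Sdhb (0.86 ± 0.21), Atp5d (0.78 ± 0.25), Ndufa1 (0.72 ± 0.25), Ndufa10 (0.63 ± 0.23) and Sdhc (0.60 ± 0.21) were also higher, as was Uqcrq (1.02 ± 0.37). In Sdhc, Ndufa13, Ndufa10 and Atp5d the DDC fed samples overlapped the normal fed ones. Without DDC fed sample 0 none of the 7 passed, and without any other DDC fed or E18 sample 1 or 2 did. The normal fed samples enter this comparison only through the shared variance, and with only the 2 groups compared 31 members were higher (23% of all genes). With median-ratio scaling 30 were (27.9% of all genes) and after the exon-length correction 40 (32.1%), the 7 among them each time. Each of these scalings left 2 lower (34.1% and 32% of all genes).

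Those lower in DDC fed than in E18 hepatocytes were Cox6b2, Ndufa4l2 and Cox4i2. Cox4i2 passed the filter only through its E18 values, so its difference here also had to be in that direction. Cox6b2 differed by -5.93 ± 0.29 and Ndufa4l2 by -3.86 ± 0.21 (limma, adjusted p = 7.62e-06 and 1.07e-05), under each scaling and with each sample left out in turn. Cox4i2 differed by -0.83 ± 0.22 (limma, adjusted p = 0.0143) and did not pass with median-ratio scaling (0.117), after the exon-length correction (0.249) or without E18 sample 0 or 1 (0.0983 and 0.132). The comparisons share samples, so their counts are not independent.

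**Figure D5:**
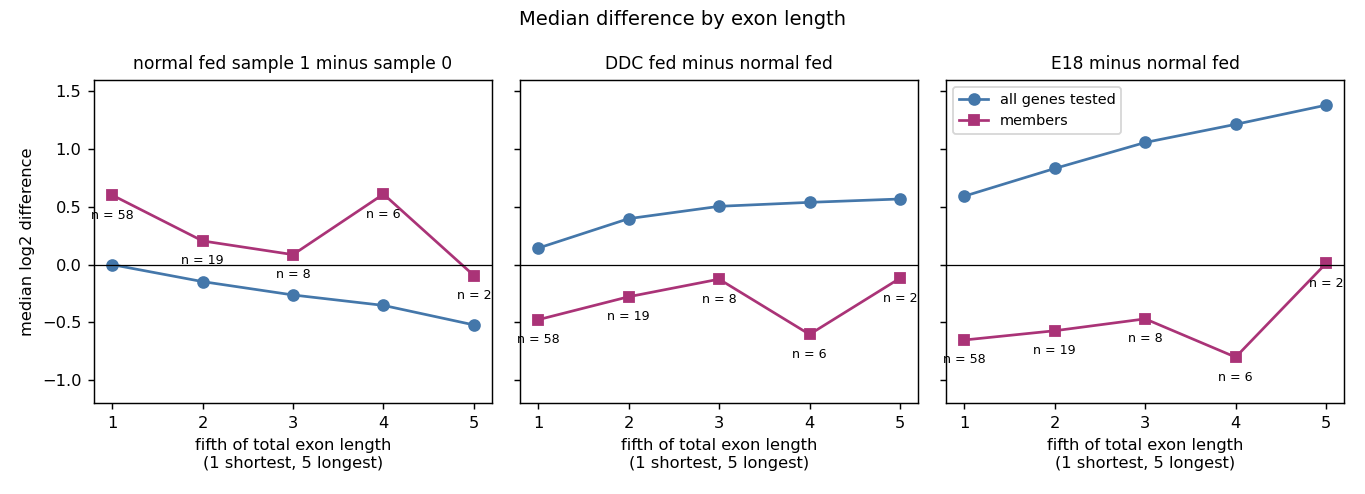
Median log2 difference (y axis) by class of total exon length (x axis, each 20% of genes, 1 shortest) for all genes tested and for the members, for normal fed sample 1 minus sample 0, DDC fed minus normal fed and E18 minus normal fed; n is the number of members. The line of all genes falls with length in the first panel and rises in the others, and the members lie below all genes in every class of the last 2 panels.

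Within the shortest class, which holds 58 members, the median change with DDC was -0.48 for members and 0.14 for all genes. At E18 it was -0.65 for members and 0.59 for all genes there. In the longest class, with only 2 members, the medians at E18 were 0.01 and 1.38. The members' median was below that of all genes in each of the 5 classes, 4 of which held fewer than 20 members.

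Genes that work with these complexes were followed for context. Of the 13 subunits encoded in mitochondrial DNA, mt-Co1, mt-Co2, mt-Co3, mt-Atp6 and mt-Atp8 were listed at 0 in all 6 samples, mt-Cytb and mt-Nd4 in the 4 adult samples, and mt-Nd1, mt-Nd5 and mt-Nd6 in both DDC fed samples. No fold is given for them. The complex I gene mt-Nd2 was listed high throughout, at 14392 and 14133 TPM in normal fed, 14806 and 14120 in DDC fed and 6701 and 5602 in E18 samples. Its adult groups overlapped and the E18 samples were below them, by -1.22 ± 0.40 (limma, adjusted p = 0.0291; 0.0569 to 0.146 without normal fed sample 1 or any one DDC fed or E18 sample).

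Genes of other mitochondrial functions are given by list. Of 19 TCA cycle genes 2 rose with DDC, Idh2, which makes NADPH in the matrix (1.87 ± 0.24; limma, adjusted p = 0.00142), and citrate synthase Cs (0.96 ± 0.29; 0.0395, and 0.285 with median-ratio scaling), and none fell by limma, against 34.2% and 3.07% of all genes (4 were higher and 0 lower at an unadjusted p under 0.05). At E18 5 rose and 5 fell, against 63% and 12.7% of all genes, with Idh2 at 1.60 ± 0.24 and fumarase Fh1 at -1.41 ± 0.22. The medians of the list were 0.45 with DDC and 0.28 at E18, and -0.22 and -0.93 with median-ratio scaling, where those of the members were -1.12 and -1.83. With that scaling 1 TCA cycle gene rose and 6 fell with DDC, and 0 rose and 11 fell at E18. Of all genes, 20.5% rose and 11.6% fell with DDC under that scaling, and 38% rose and 31.8% fell at E18. Of 26 other proteins of the organelle 2 rose with DDC (Slc25a4 and Timm50) and none fell, against 34.2% and 3.07% of all genes. At E18 7 of them rose and 1 fell, against 63% and 12.7% of all genes. With median-ratio scaling 1 was higher and 4 lower with DDC, and 1 higher and 18 lower at E18. The shares of all genes for that scaling are those given above. Slc25a4, the heart and muscle form of the ADP/ATP carrier that exchanges the product of complex V, stood at 0.838 and 0.596 TPM in normal fed, 25.5 and 25.9 in DDC fed and 126 and 112 in E18 samples. It rose by 3.96 ± 0.19 with DDC and 6.13 ± 0.19 at E18 (limma, adjusted p = 4.04e-05 and 1.51e-06), also under both other scalings. Slc25a20, the carnitine carrier of fatty acid oxidation, fell at E18 (-1.92 ± 0.20).

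Of 40 assembly factors with other symbols 1 rose (Acad9) and 1 fell (Lyrm7) with DDC, and 4 rose and 10 fell at E18, against 34.2% and 3.07%, and 63% and 12.7%, of all genes. With median-ratio scaling 0 rose and 15 fell with DDC, and 0 rose and 34 fell at E18. The shares of all genes there were 20.5% and 11.6%, and 38% and 31.8%. The smallest adjusted p at E18 was that of Sco2, a copper carrier of complex IV (-1.64 ± 0.18), followed by the complex I factors Ecsit (-1.03 ± 0.18) and Timmdc1, whose means were 42.1 ± 3.99 TPM in normal fed and 20.5 ± 1.34 in E18 samples (SD, n = 2 each). Of 16 electron carriers and enzymes of ubiquinone synthesis 3 rose (Pdss1, Coq4 and Coq2) and 1 fell (Etfb) with DDC, and 5 rose and 8 fell at E18, beside the same shares of all genes. With median-ratio scaling 0 rose and 4 fell with DDC, and 1 rose and 12 fell at E18, beside the shares of all genes given for that scaling. Coq8a, a kinase-like regulator of ubiquinone synthesis, fell by 2.69 on the log2 scale at E18 (SE 0.22; limma, adjusted p = 4.32e-05). Pdss1, which makes the ubiquinone tail, was higher by 1.55 ± 0.20.

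Of 19 regulators of mitochondrial biogenesis 1 fell with DDC (Esrrg), where 34.2% of all genes rose and 3.07% fell. At E18 9 rose and 1 fell, against 63% and 12.7% of all genes. Gabpb1, a GABP subunit, stood at 6.05 ± 0.365 TPM in normal fed, 7.88 ± 0.214 in DDC fed and 30.5 ± 1.42 in E18 samples (SD, n = 2 each). Nrf1 stood at 6.33 ± 0.823, 7.21 ± 1.72 and 34.2 ± 4.31 TPM. Both rose at E18, by 2.16 ± 0.19 and 2.26 ± 0.24 (limma, adjusted p = 5.46e-05 and 0.000139), and by 1.05 and 1.15 with median-ratio scaling. Ppargc1b, a coactivator, rose by 1.18 ± 0.16 but by 0.07 with the exon-length correction (limma, adjusted p = 0.736). With median-ratio scaling 4 of the 19 rose and 8 fell at E18, against 38% and 31.8% of all genes. Among the genes of these lists that passed with DDC, Idh2 and Slc25a4 did so with each sample left out in turn. Cs, Timm50, Acad9, Lyrm7, Pdss1, Coq4, Coq2, Etfb and Esrrg did not pass without DDC fed sample 0 or without sample 1 (limma, adjusted p between 0.0653 and 0.286).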

How the data were processed

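Poly(A)-selected RNA was prepared with a stranded TruSeq kit per the labels' protocols. The authors deposited TPM for 48432 genes in 6 samples, and each column sums to 1000000. The build is GRCm38 (mm10), and Cuffdiff 2.2.1, DESeq2, HTSeq, Picard 1.119, STAR 2.4.2a, Trimmomatic and bcl2fastq 2.17.1.14 were used by the authors in unstated roles, per the submitters' processing notes; the tool that made the TPM is not given in the sources used here. Column numbers (0 and 1) differ from those of the titles (1 and 2), and columns were mapped to groups only. With no counts, precision rests on the 2 samples a group.

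Identifiers were matched to GENCODE M21 (48053 of 48432), which gave symbols, coordinates and exon lengths. The 14307 genes that reached 1 TPM in 2 or more samples were fitted as log2(TPM + 1) with limma 3.58.1 in R 4.3.3, on all 6 samples with 1 mean a group, 3 residual degrees of freedom and a variance prior that follows the mean. P-values are two-sided, with Benjamini-Hochberg adjustment over all 14307 genes and a threshold of 0.05. Fold changes on this scale understate changes of low genes. The fit was tested on simulated data. The members, roles, gene lists and tests were chosen with earlier results of these data known.

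Named members are alternative forms of a subunit, complex II, the highest and lowest change (among those averaging 10 TPM or more in either group) and the highest level of a complex, all members where 5 or fewer passed, and assembly factors with the largest change; up to 3 genes a related list are named by adjusted p. Sequences are from RefSeq, GRCm38.p6. Alternatives were other pseudocounts (0.1, 5), filters, median-ratio scaling, rescaling without the 50 highest and the erythroid genes, a loess correction for exon length, a replicate term, only the compared groups, a prior without trend, a threshold of 0.01 and each sample left out; a lone sample is then assumed to vary like the other groups. Of the members, 10 overlap another gene on the same strand and 34 one on the other strand, and 11 pseudogenes carry these prefixes, so reads may be shared.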

Additional observations from a re-analysis of the deposited data

How the results depend on the processing

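Counts of members that passed moved with the scale, and so did the share of all genes that passed, given in brackets. The median changes also moved with the samples. For DDC fed against normal fed 1 was higher (34.2%), but 2 with a pseudocount of 0.1 (36.3%) and 3 without a variance trend (33.4%). The count was 0 with median-ratio scaling (20.5%), exon-length correction (16.6%), only the 2 groups compared (26.5%) or a threshold of 0.01 (19.5%). The 5 lower became 30 with median-ratio scaling, 8 with rescaling without the highest and erythroid genes, 45 after the exon-length correction, 0 with only the 2 groups or a threshold of 0.01, and 0 to 57 when a sample was left out. At E18 4 were higher (63%), and 3 with median-ratio scaling (38%) or after the exon-length correction (31.7%). The 42 lower became 27 with no filter, 88 with median-ratio scaling, 87 after the exon-length correction, 20 with only the 2 groups, 14 at a threshold of 0.01, and 10 to 72 when a sample was left out. For DDC fed against E18 the 7 higher became 30 with median-ratio scaling, 40 after the exon-length correction, 31 with only the 2 groups, 13 without a variance trend, 1 at 0.01, and 0 to 31 when a sample was left out; the 3 lower became 2 to 3.

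Many members turned their direction with the scale. Of the 93 tested, 21 had a positive change with DDC and 11 at E18, but 3 and 4 with median-ratio scaling. Listed here are only named members that turned and passed in either setting. With DDC this was Ndufa13 (-0.60 with median-ratio scaling). At E18 they were Atp5b (-1.17 with median-ratio scaling, -1.12 after the exon-length correction), Atp5g2 (-0.86 with median-ratio scaling) and Ndufs1 (-0.91 and -1.12). For DDC fed against E18, Ndufs1 stood at 0.59 after the exon-length correction. The cause was not tested. Same-numbered samples deviated together by correlations of 0.233, 0.139 and 0.0605 over 14307 genes, so not every pair exceeded 0.1 and the numbers were not taken to pair the samples. With the replicate block 1 was higher and 7 lower with DDC (35.7% and 3.48% of all genes). The counts were 4 and 46 at E18 (64% and 13.4%), and 10 and 3 for DDC fed against E18 (18.8% and 47.5%). The unknown depth limits what can be said of members near 0.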
